A study of Mus musculus with 8 samples.

Results

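Gas5 is a non-protein-coding host gene on mouse chromosome 1 (GRCm38, chr1:161034422-161038539, plus strand) whose introns carry small nucleolar RNAs (snoRNAs). Its small RNA fragments were taken by position: every piRNA name with a listed locus inside a window that runs from just before the annotated start of the gene to just after its annotated end was used once. This gave 143 of the 13450 names in the table of control and microcystin-LR (MC-LR) sperm and 116 of the 17375 names in the table of the shRNA sperm. All 116 were also among the 143, which is 81.1% of them. The locus was picked because names on Snord80, one of its snoRNAs, were among the deepest differences between MC-LR and control, so the values of that contrast are a description, and the calls of the fit over all names are printed for it as counts from which nothing is read. The contrast of the shRNA groups was not used in the choice.

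Box C/D snoRNAs are short RNAs that guide ribose methylation of ribosomal RNA. Box C near the 5′ end and box D near the 3′ end are brought together by a terminal stem and bind the core proteins, among them the methyltransferase fibrillarin, and the guide sequence that pairs with the target lies just upstream of box D or of its inner copy, box D′. In mammals most of them are cut out of the introns of host genes, and the trimming of the excised intron stops at the ends of the particle. Gas5 is a classic host of this kind: its spliced exons hold no protein-coding sequence and the introns yield the functional RNAs. piRNAs are another class of small RNA, bound by PIWI proteins in germ cells, and a name in a piRNA catalogue says only that the sequence was listed there.

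Sperm of Balb/c mice at 8 months of age was profiled in 4 groups of 2 libraries, lettered A and B. The first table holds control and MC-LR, a cyanobacterial toxin that inhibits the phosphatases PP1 and PP2A. The second holds sperm labelled with a negative-control shRNA (short hairpin RNA) or with one that targets Hsp90aa1, the gene of a cytosolic chaperone. The series' design speaks of 2 doses of MC-LR, but the labels give no dose to either MC-LR library, and they name no route or vector. They do not tie the libraries of a group to separate animals either, so spreads and p-values describe these libraries and may be technical. Library totals ran from 4960467 to 14634370 reads, and 1 read was worth 0.0683 to 0.202 RPM, the deposited unit, which scales reads to a library total. In this bulk sperm RNA, fewer cells of a type and less RNA per cell cannot be told apart. Intervals are not given, and limits from reads cover counting error only.

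The 143 names lay on the plus strand and on 9 annotated snoRNA genes (142 wholly inside and 1 running 1 nt past the end of Snord47), 1 gene in each of introns 1, 2, 3, 5, 6, 7, 8, 9 and 10 of the transcript Gas5-210. None overlapped an exon of that transcript, or of any Gas5 transcript that is not annotated as a retained intron. All 143 overlapped the exon of some retained-intron transcript, so that annotation alone does not separate snoRNA from unspliced host RNA. Outside the window the nearest listed names lay 1694 kb before it (piR-mmu-8112177 with 5.53 and 2.62 RPM in control against 2.02 and 1.52 RPM under MC-LR) and 1179 kb after it (piR-mmu-48773564 with 5.26 and 5.24 RPM in control against 1.51 and 1.98 RPM under MC-LR). Just inside, the first name of the locus (piR-mmu-55828420) had 6.35 and 3.63 RPM in control against 0.673 and 2.74 RPM under MC-LR.

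The 9 snoRNA sequences are shown because the position of the fragments against their boxes is the pattern described below. They are GENCODE M21 transcripts on GRCm38, 5′ to 3′ in the order of the introns, with the C box letters TGATG and the D box letters CTGA in capitals.
Gm26224, chr1:161035394-161035473: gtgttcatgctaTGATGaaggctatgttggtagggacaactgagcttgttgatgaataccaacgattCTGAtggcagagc
Gm22489, chr1:161035850-161035911: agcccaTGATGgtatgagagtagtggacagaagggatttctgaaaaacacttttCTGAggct
Gm22357, chr1:161036057-161036139: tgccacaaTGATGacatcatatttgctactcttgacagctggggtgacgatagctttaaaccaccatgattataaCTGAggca
Gm23212, chr1:161036682-161036741: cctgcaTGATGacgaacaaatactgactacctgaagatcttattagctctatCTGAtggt
Snord78, chr1:161036984-161037049: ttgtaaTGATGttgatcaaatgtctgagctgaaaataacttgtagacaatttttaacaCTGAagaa
Mir5117, chr1:161037356-161037439: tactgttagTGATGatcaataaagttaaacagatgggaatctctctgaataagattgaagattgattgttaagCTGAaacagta
Snord80, chr1:161037601-161037681: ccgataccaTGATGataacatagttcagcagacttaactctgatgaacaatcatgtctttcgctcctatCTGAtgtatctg
Snord47, chr1:161038082-161038158: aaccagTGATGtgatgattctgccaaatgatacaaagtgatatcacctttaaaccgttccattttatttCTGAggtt
Gm25789, chr1:161038308-161038383: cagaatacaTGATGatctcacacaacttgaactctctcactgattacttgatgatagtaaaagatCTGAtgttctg
Both motifs, searched on the transcript strand alone as TGATG in the first 20 nt and CTGA in the last 15 nt, were present in 9 of the 9 genes. Outside Gas5 they were present together in 79 of 94 Snord genes (84.0%), in 0 of 42 Snora genes, which belong to the box H/ACA class, and in 347 of all 1507 annotated snoRNA genes (23.0%). The gene called Mir5117 has a microRNA symbol but is annotated as a snoRNA and holds both boxes. Snord80 is annotated in duplicate, and the longer of the overlapping entries is used.

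Most fragments lay at a box: on 8 of the 9 snoRNAs there were names at both boxes, and on Gm22489 at the D box alone. The exception was piR-mmu-8118839 on Gm25789, which covers bases 36 to 58 and reaches neither box, and 3 further names, on Gm22489 and Gm25789, stop inside the D box letters. Split at the midpoint of the snoRNA, 58 names belonged to the 5′ arm and 85 to the 3′ arm, and lengths ran from 18 to 33 nt with a median of 28 nt. The outer ends recurred. Of the 58 names of the 5′ arm, 39 (67.2%) began 5 nt before the C box letters and 57 began 5 or 6 nt before them. Of the 85 names of the 3′ arm, 53 (62.4%) ended 2 nt after the D box letters, and these carried 85% of that arm's control RPM. The 3′ arm of Snord80 was the largest set with a single outer end, 10 names with 10 different first bases and 1 shared last base. The 7 names of the 5′ arm of Gm26224 likewise had 1 first base and 7 last bases. On the 3′ arm of Mir5117 the 14 names had 10 first bases and 3 last bases. On Snord47 the 16 names of the 5′ arm used 2 first bases and 10 last bases. In these sets the inner end varied more than the outer one. Other sets were less regular: the 14 names of Gm22489 had 5 first bases and 4 last bases, with 4 names at the recurrent end, and the 5 names of the 3′ arm of Snord47 had 4 first and 4 last bases, with 1 name at it.

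**Figure D1:**
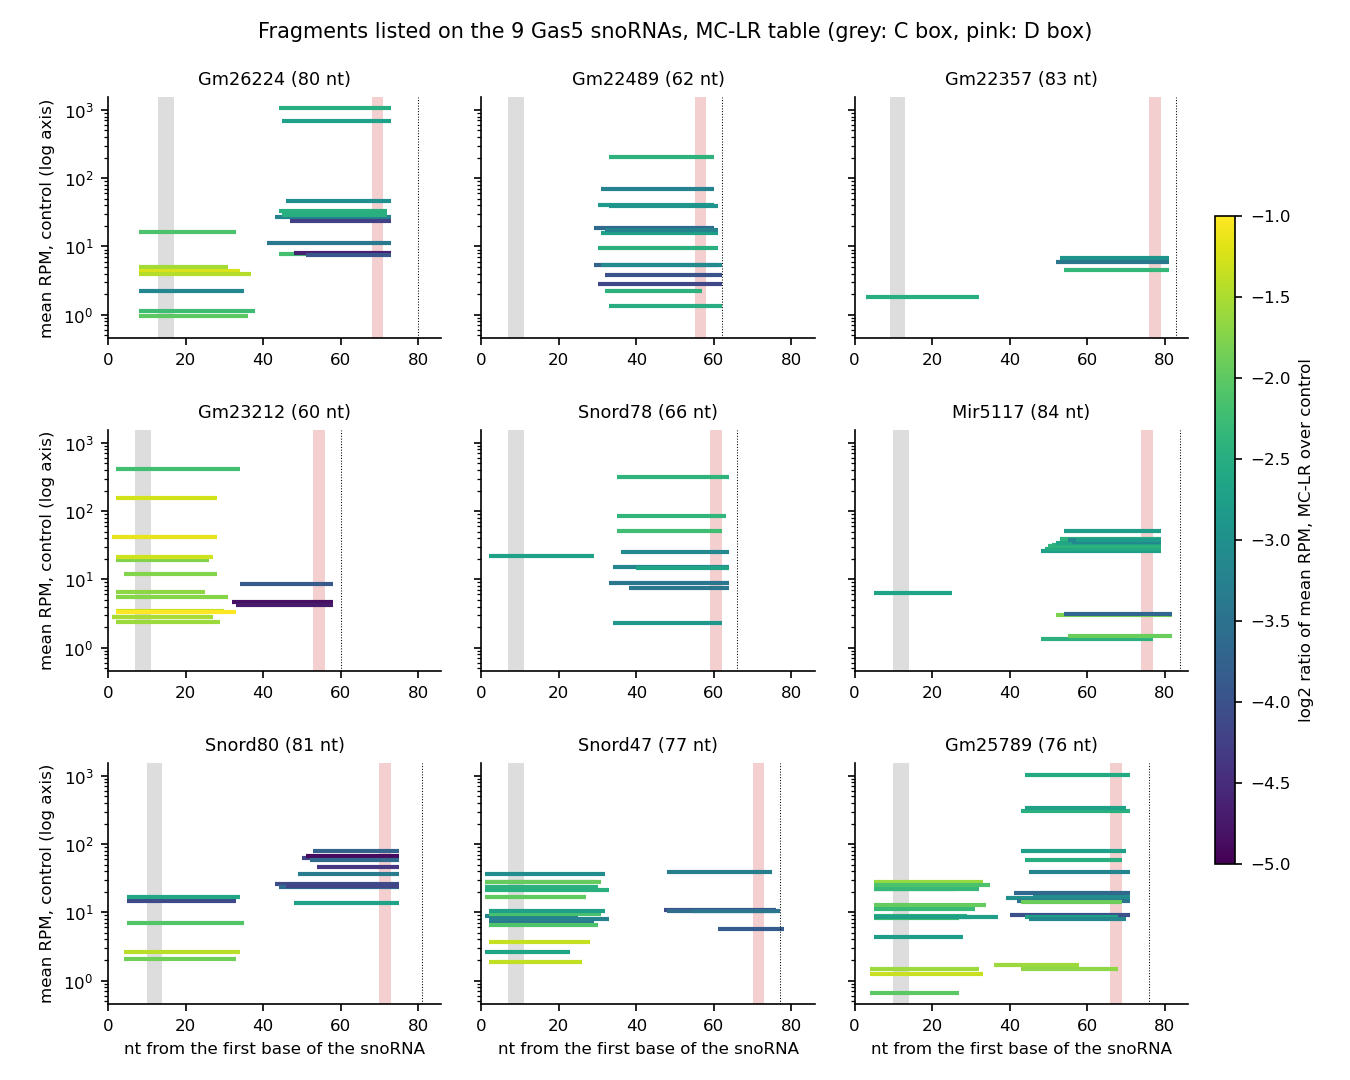
Each panel is 1 snoRNA; a bar spans a listed fragment from its first to its last base (x, nt), at its mean control RPM (y, log axis, n = 2 libraries), coloured by the log2 ratio of mean RPM of MC-LR over control. Most bars begin just before the C box (grey) or end just after the D box (pink), the dotted line marks the annotated end, and the lowest ratio, −4.88, lies on the 3′ arm of Snord80.

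Fragments of the other Snord genes had recurrent ends at the same places. The exact bases counted were the commonest of the Gas5 names, so lower shares at them elsewhere do not measure how regular those ends are. There, 45.9% of the 5′ arm names with a C box began 5 nt before it and 48.3% of the 3′ arm names with a D box ended 2 nt after it. Counted by the RPM of the control libraries, these shares were 47.8% and 72.2%, against 78.6% and 85% on the Gas5 snoRNAs. Starts 5 or 6 nt before the C box letters made up 94.0% of those 5′ arm names, close to the 98.3% on the Gas5 snoRNAs. Of the 318 names outside Gas5, 299 began at either base and 146 of them 5 nt before, so 6 nt was the commoner distance. Ends 0 to 3 nt after the D box letters made up 63.7% of those 3′ arm names, against 84.7%. The shares are descriptions of the listed names, which overlap each other and are not independent. Neighbouring names of the locus that differ by 1 nt at 1 end differed in control RPM by a median of 2.2-fold over 125 pairs, with a maximum of 121-fold, so fragments that share nearly all bases could differ widely in level.

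Many piRNAs begin with uridine, which the sequences here give as T. Of the 142 names whose sequence lies wholly inside the annotated snoRNA, 69 began with A, 33 with T, 22 with C and 18 with G. By RPM the order was different, and the arms differed from each other. Names that begin with T held 33.1% of the locus in control A, where they led, and 25.9% in control B, where those with A led with 28.3%. Under MC-LR the shares of T were 24.4% and 25.6%, those of A 25.8% and 26.4% and those of C 27.6% and 25.2%. There, base C led in library A and base A in library B. On the 3′ arms T led by RPM in all 8 libraries, with 37.7% and 29.96% in control and 31.5% and 31.3% under MC-LR. The lead was narrow in several libraries: G held 28.2% in control B, and 29.7% and 29.4% under MC-LR. In negative-control shRNA library A T held 30.7% against 29.4% for G. The lead was narrowest in Hsp90aa1 shRNA library B, at 29.9% against 29.4% for G. By count of names A led on the 3′ arms, with 37 of 84 against 22 for T in the MC-LR table. The T share includes piR-mmu-53871, the leading name of Gm25789. On the 5′ arms, whose first base lies at a recurrent place, T held 9.26% and 7.03% in control and C led with 51.1% and 60.5%.

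Per nucleotide of snoRNA, Gm25789 and Gm26224 gave the most fragments and Gm22357 the fewest in each of the 4 groups. Summed over its names and divided by its length, Gm25789 had 24.8 to 30.9 RPM per nt in the control libraries and Gm26224 18.2 to 31.3, ranges that overlap. Gm23212 (8.23 to 15.3), Snord78 (4.77 to 11.8), Gm22489 (5.13 to 8.84) and Snord80 (5.58 to 6.25) followed, and each of these ranges overlaps the next one. Mir5117 (4.24 to 4.49) and Snord47 (3.45 to 4.63) were below them, and Gm22357 had 0.189 to 0.262 RPM per nt. Under MC-LR the order was the same except that Snord80, at 0.430 to 0.450 RPM per nt, stood below Mir5117 and Snord47, and only the ranges of those other two overlapped. With the negative-control shRNA the order from the fourth to the seventh place was Gm22489, Snord78, Snord47 and Snord80, all with overlapping ranges, and with the Hsp90aa1 shRNA Snord80 (0.0866 to 0.102) again stood below Mir5117 (0.106 to 0.113). Of these genes, Snord47, Snord78 and Snord80 have snoRNA symbols, and the symbols of the others are those of the annotation.

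**Figure D2:**
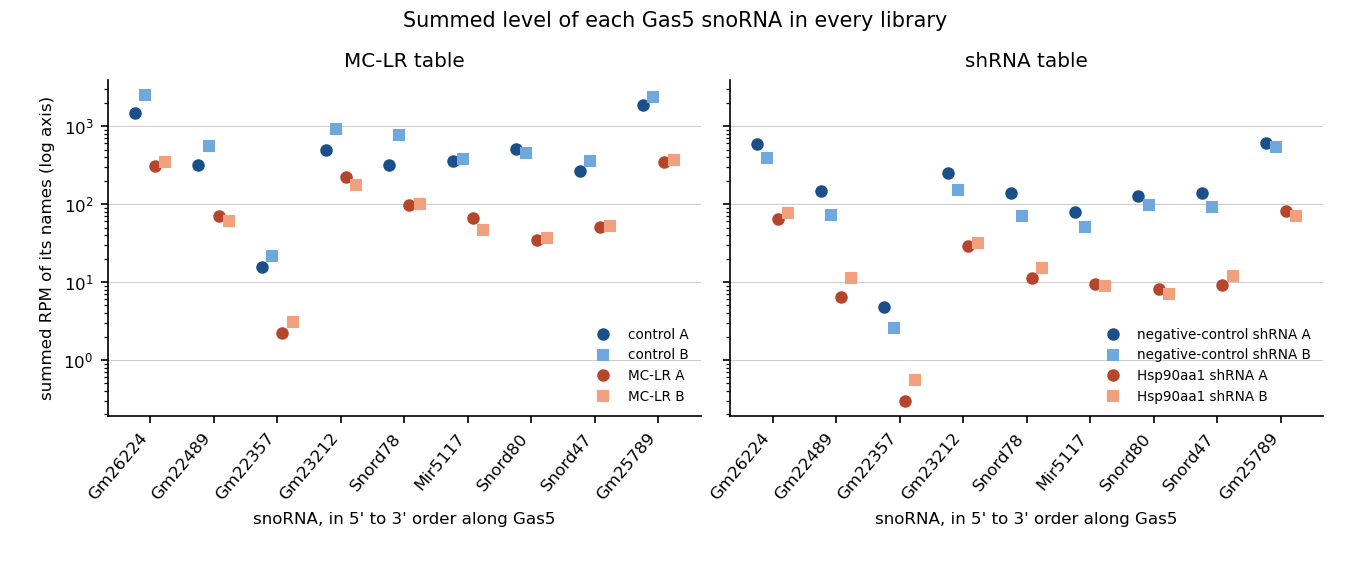
Summed RPM of the names on each snoRNA (y, log axis) in each of the 4 libraries of a table, circles for library A and squares for library B. The groups do not overlap on any of the 9 snoRNAs in either table, and the gap is widest at Snord80, from 506 and 452 to 34.8 and 36.4 RPM under MC-LR.

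Under MC-LR every Gas5 snoRNA was lower than in control. The control libraries A and B held 5611 and 8297 RPM of the locus, and the MC-LR libraries 1197 and 1185 RPM. The mean was 6954 ± 1899 against 1191 ± 8.71 RPM (SD, n = 2 each), 5.84-fold lower, and no library of one group came near the other. On single names, 136 were lower at an adjusted p under 0.05 (limma on log2(RPM + 1), Benjamini-Hochberg over the table), 5 were not past it, 0 were higher and 2 were too low to be tested. Over all names 73.1% of the tested names were called lower, and 0 members were higher also at an unadjusted p under 0.05 or with edgeR and DESeq2. The groups did not overlap for 143 of 143 names, against 92.6% of all names. Since this contrast chose the locus, nothing is read from these counts.

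The direction of nearly the whole list bears on each count. All listed names had reads in every library and 2 of the 13450 had a log2 ratio within 0.5 of 0, so the tables do not show names that stayed level. When reads were scaled so that the median of the listed names was near 0 (edgeR with TMM factors), the log2 changes of all names moved up by 1.64. The median of the 141 tested members moved from −2.64 to −1.0, 123 of them were below 0 against 49.9% of all names, and 17 were called lower against 3.02% of all names. DESeq2 size factors also left 17 lower. These counts come from the contrast that chose the locus, and nothing is read from them either. As a share of the summed RPM of all listed names, the locus was 1.47% and 2.35% in control and 0.960% and 1.01% under MC-LR. As a share of the names on snoRNA genes it was 7.68% and 9.57% in control and 7.64% and 8.36% under MC-LR, ranges that overlap.

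Snord80 had the widest gap of the 9, 479 ± 38.3 RPM in control against 35.6 ± 1.12 under MC-LR (SD, n = 2 each), which is 13.4-fold lower. Gm23212 had the narrowest, from 494 and 919 RPM to 225 and 176 RPM, 3.53-fold. The other 7 lay between 5.54-fold (Snord78) and 7.16-fold (Gm22357, whose sums were 15.7 and 21.8 against 2.19 and 3.05 RPM). The 2 most abundant, Gm25789 with 1885 and 2346 against 346 and 363 RPM and Gm26224 with 1456 and 2500 against 305 and 346 RPM, were 5.97-fold and 6.08-fold lower. Position along Gas5 did not order these ratios: Snord80 in intron 8 lies between Mir5117 (6.48-fold) and Snord47 (6.0-fold), and Gm23212 in intron 5 between Gm22357 and Snord78. Snord80 made up 9.02% and 5.45% of the locus in control and 2.91% and 3.07% under MC-LR, while Gm23212 made up 8.80% and 11.1% in control and 18.8% and 14.8% under MC-LR.

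The leading name of each snoRNA shows how the RPM is spread over its fragments. On Gm25789 the 28-nt piR-mmu-53871 had 897 and 1142 RPM in control against 169 and 173 RPM under MC-LR, and it held 47.6% to 49.0% of its snoRNA in all 4 libraries. On Gm26224 the 30-nt piR-mmu-10829934 had 710 and 1410 RPM in control against 177 and 200 RPM under MC-LR. Both end at the D box, and neither overlaps between the groups. The control libraries of piR-mmu-10829934 differed 1.99-fold, against 5.62-fold between its group means. The 33-nt piR-mmu-10646625, at the C box of Gm23212, was the leading name with the largest ratio between the control libraries, 182 and 637 RPM in control against 94.6 and 81.7 RPM under MC-LR. On Snord78 piR-mmu-55491372 (30 nt) had 155 and 468 RPM in control against 56.4 and 61.3 RPM under MC-LR. On Gm22489 piR-mmu-55451670 (28 nt) had 175 and 231 RPM in control against 42.2 and 33.4 RPM under MC-LR. Each of these 5 names held 36.9% or more of its snoRNA in all 4 libraries. On Mir5117 piR-mmu-12221770 (26 nt) went from 57.3 and 45.4 to 10.1 and 4.73 RPM and held 10.1% to 16.1% of its snoRNA. On Snord47 piR-mmu-57718276 (28 nt) went from 42.4 and 36.5 to 4.38 and 3.66 RPM, and on Gm22357 piR-mmu-61429065 (29 nt) went from 5.47 and 7.86 to 0.842 and 0.915 RPM. Low names are shown for completeness: the narrowest differences on the log2(RPM + 1) scale were those of piR-mmu-15655685 and piR-mmu-29243985 on Gm25789 and piR-mmu-62773621 on Gm26224, all with at most 1.41 RPM in any library.

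In sum, the 3′ arms were lower by more than the 5′ arms. Under MC-LR the 3′ arm names summed to 4709 and 6815 RPM in control and 878 and 903 RPM with the toxin, 6.47-fold lower. For the 5′ arm names the sums were 902 and 1482 RPM against 319 and 282 RPM, 3.96-fold lower. Most of this lay on Gm23212, with 472 and 906 RPM in control against 224 and 175 RPM under MC-LR, 3.46-fold lower. Over the whole locus the ratio of the 3′ to the 5′ arm was 5.22 and 4.60 in control and 2.75 and 3.20 under MC-LR, without overlap. With ends classed instead by a distance of at most 5 nt from the annotated ends, 55 names touched the 3′ end, 51 the 5′ end and 37 neither, because the annotated ends of Gm26224, Snord80 and others lie outside the recurrent fragment ends. The log2 ratio of the 3′ class was then lower than that of the 5′ class by 0.63, and with a distance of 8 nt, which left 2 names unclassed, by 0.71. The Snord genes outside Gas5 showed the same order: 6.06-fold lower for their 3′ arm names and 3.85-fold lower for their 5′ arm names, with 3′ to 5′ ratios of 2.67 and 2.28 in control and 1.62 and 1.5 under MC-LR. The order of the arms was thus shared with other Snord genes.

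**Figure D3:**
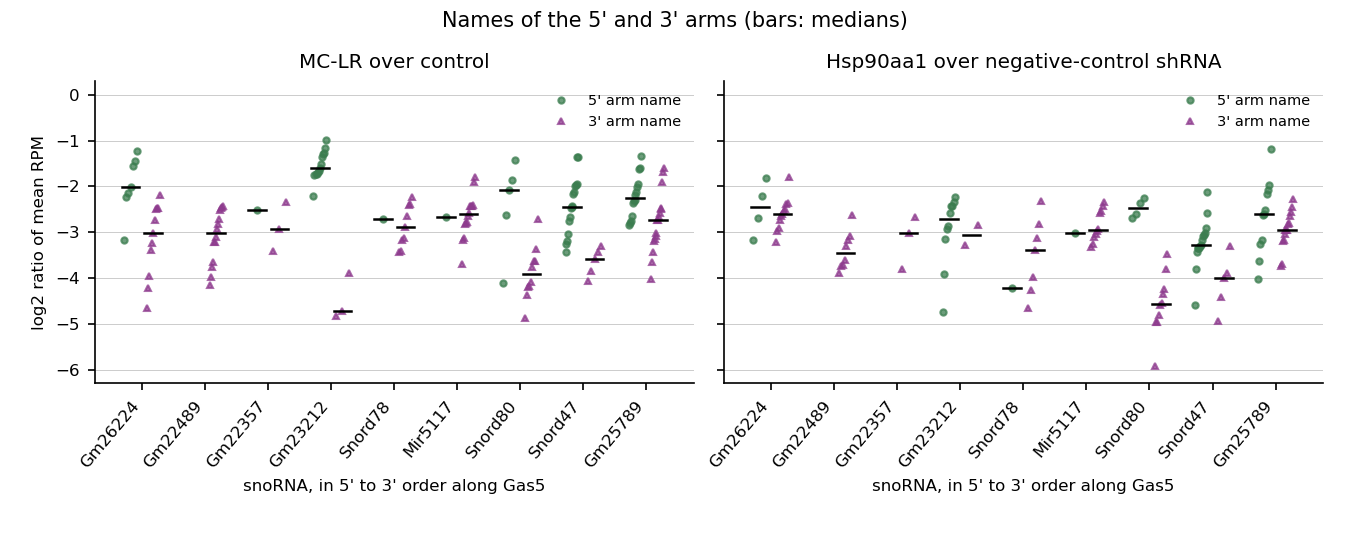
Each point is 1 name, placed by its snoRNA (x) and its log2 ratio of mean RPM (y, n = 2 libraries a group), with circles for the 5′ arm, triangles for the 3′ arm and a bar at each median. The 3 points of the 3′ arm of Gm23212 under MC-LR rest on 1 to 5 reads a library and are not compared. Among the other sets the lowest median is that of the 3′ arm of Snord80, −3.92 under MC-LR and −4.56 in the shRNA contrast. In that contrast those Snord80 names rest on 1 to 23 reads in an Hsp90aa1 shRNA library.

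Within single snoRNAs the arms differed to unlike degrees. Snord78 had the opposite order, 5.5-fold lower on the 3′ arm (294 and 753 against 92.4 and 97.9 RPM) and 6.52-fold on the 1 name of its 5′ arm (21 and 23 against 3.7 and 3.05 RPM), and Mir5117 had 6.48-fold on the 3′ arm and 6.31-fold on its 1 name of the 5′ arm. On Snord80 the 3′ arm summed to 473 and 399 RPM in control against 29.6 and 28.2 RPM under MC-LR, 15.1-fold lower, and the 5′ arm to 33.2 and 52.8 RPM against 5.22 and 8.23 RPM, 6.40-fold lower. On Gm23212 the order of the arms was the other way round in abundance: the 5′ arm had 472 and 906 RPM in control against 224 and 175 RPM under MC-LR, 3.46-fold lower. Its 3′ arm, with 3 names, had 21.7 and 13.1 RPM in control against 1.18 and 0.610 RPM under MC-LR. The names piR-mmu-8543066 and piR-mmu-62491324 of that arm had 1 read each in both MC-LR libraries, so no fold is read from them and their plotted ratios rest on single reads. Snord47 was also led by its 5′ arm, with 181 and 287 against 43.6 and 46.2 RPM, 5.21-fold lower, beside 85 and 69.1 against 7.57 and 6.25 RPM on the 3′ arm, 11.2-fold lower. Gm25789 had the arms closest together among the snoRNAs with several names on each, 6.12-fold lower on the 3′ arm and 4.56-fold lower on the 5′ arm. With TMM factors the 13 names of the 5′ arm of Gm23212 had a median log2 change of 0.02, with 7 above 0. The 10 names of the 3′ arm of Snord80 had a median of −2.26, all below 0. Snord80 names chose the locus in this contrast, so nothing is read from that difference.

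The ladder of Snord80 is printed because it holds the deepest values of the locus. The 10 names end at the same base, 2 nt after the D box (capitals), and differ only in where they begin.
piR-mmu-68032111: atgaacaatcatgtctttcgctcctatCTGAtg
piR-mmu-67686428: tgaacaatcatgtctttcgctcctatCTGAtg
piR-mmu-66319097: aacaatcatgtctttcgctcctatCTGAtg
piR-mmu-55666738: caatcatgtctttcgctcctatCTGAtg
piR-mmu-5875906: aatcatgtctttcgctcctatCTGAtg
piR-mmu-4547906: atcatgtctttcgctcctatCTGAtg
piR-mmu-62176622: tcatgtctttcgctcctatCTGAtg
piR-mmu-55736340: catgtctttcgctcctatCTGAtg
piR-mmu-5926135: atgtctttcgctcctatCTGAtg
piR-mmu-50492414: tgtctttcgctcctatCTGAtg
The 23- to 26-nt rungs were the highest in both control libraries. The 23-nt piR-mmu-5926135 had 95.9 and 61.9 RPM in control against 6.23 and 5.49 RPM under MC-LR, 13.5-fold lower. The 25-nt piR-mmu-62176622 had 77.4 and 55.2 RPM in control against 2.52 and 1.98 RPM under MC-LR, 29.4-fold lower, and its immediate neighbours, at 24 nt (75.1 and 42.3 against 5.39 and 4.12 RPM) and 26 nt (70.0 and 56.0 against 3.53 and 3.35 RPM), were less far apart. The control libraries held 1132 and 274 reads of the 25-nt rung and the MC-LR libraries 15 and 13. The 22-nt piR-mmu-50492414 had 58.2 and 33.7 against 1.85 and 2.59 RPM, 20.7-fold lower. The long rungs behaved differently between the control libraries: the 33-nt piR-mmu-68032111 had 11.6 RPM in control A and 39.9 in control B, and 1.51 and 1.52 RPM under MC-LR. The 28-nt rung was the lowest in control B and close to the lowest in control A, with 13.9 and 13.1 RPM against 2.02 and 2.13 RPM under MC-LR.

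**Figure D4:**
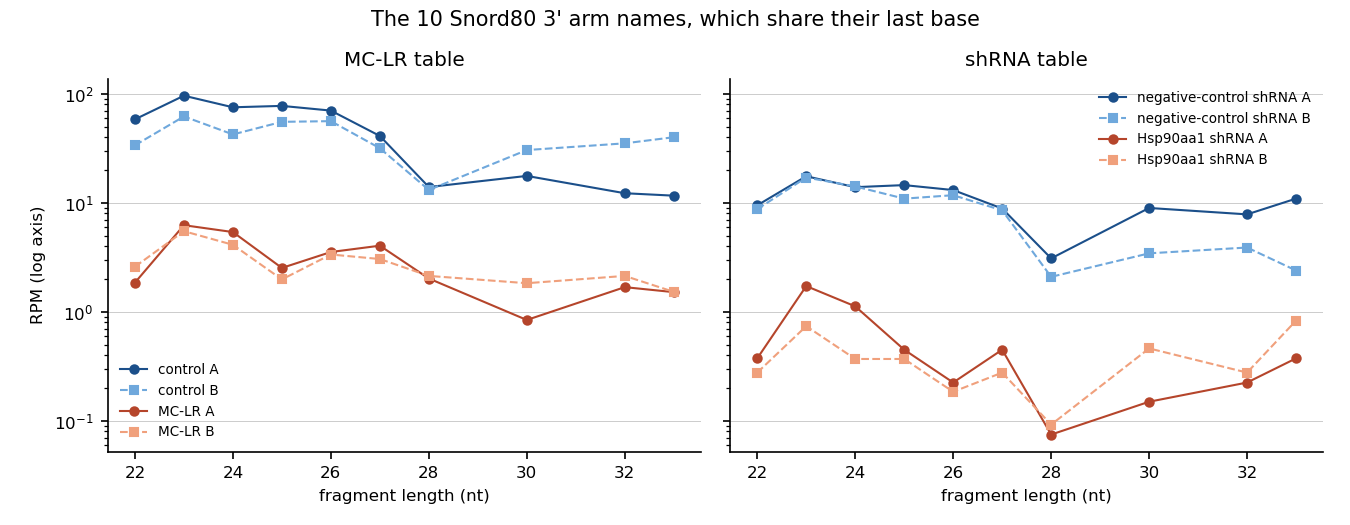
RPM (y, log axis) of the 10 Snord80 3′ arm names by fragment length (x, nt) in each library, solid lines for library A and dashed lines for library B. Both control libraries peak at 23 nt, at 95.9 and 61.9 RPM, control A lies above control B up to 28 nt and below it from 30 nt, and the treated libraries lie below their controls at every length.

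Libraries of the same group differed by fragment length in 3 of the 4 groups. In the Gas5 names of 17 to 25 nt, control B held a median of 0.701 times the RPM of control A, and in those of 31 to 35 nt 2.86 times. The Pearson correlation between length and the log2 ratio of the control libraries was 0.79 over the 143 names, and 0.78 over the 11350 names on no snoRNA gene, so the tilt runs through the whole table. Names are not independent, and these values describe the libraries. The MC-LR libraries showed little of it (0.14). The negative-control shRNA libraries had the opposite tilt (−0.78, median ratios of 1.01 for the short and 0.391 for the long names) and the Hsp90aa1 shRNA libraries a positive one (0.59).

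**Figure D5:**
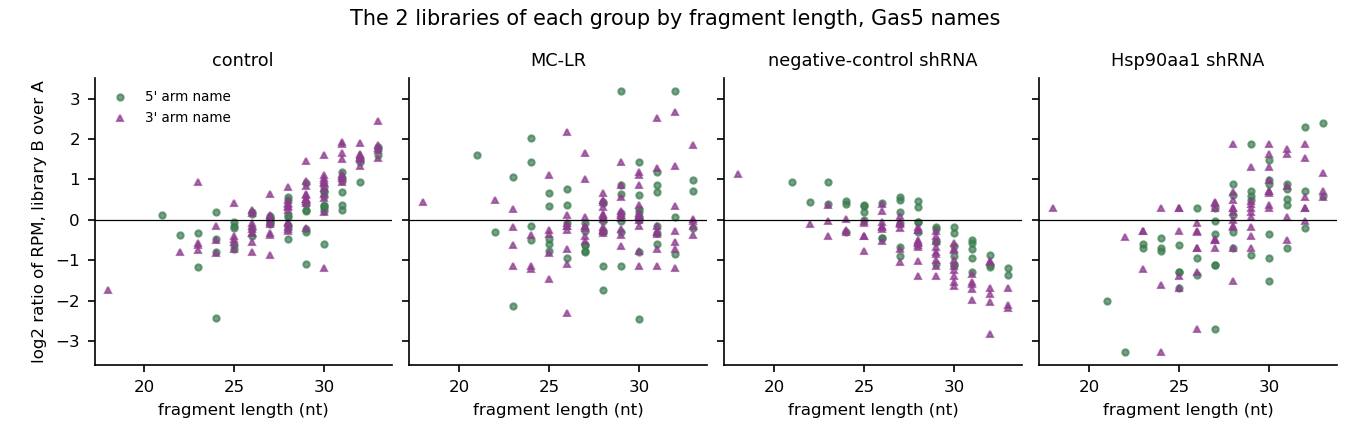
Each point is 1 Gas5 name, by its length (x, nt) and the log2 ratio of its RPM in library B over library A of the same group (y); circles are 5′ arm names and triangles 3′ arm names. The ratio climbs with length in control (r = 0.79) and with the Hsp90aa1 shRNA (0.59), falls with the negative-control shRNA (−0.78) and shows no clear slope under MC-LR (0.14).

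Short names were lower by more than long ones in the pooled sums, and this depended on which library was used. Names of 17 to 25 nt summed to 617 and 432 RPM in control against 64.5 and 53.3 RPM under MC-LR, 8.90-fold lower. Names of 26 to 35 nt summed to 4994 and 7865 RPM against 1133 and 1132 RPM, 5.68-fold lower. The difference of their log2 ratios was 0.65, but 0.08 without control A, 1.25 without control B, and 0.79 or 0.52 when MC-LR A or B was left out. Short names were 11.0% and 5.21% of the locus in control and 5.38% and 4.50% under MC-LR, so control B stood beside the MC-LR libraries. The mean length weighted by RPM was 28.2 and 29.05 nt in control, against 28.8 and 28.9 nt under MC-LR, ranges that overlap. Within the 3′ arm the short names (499 and 337 against 40.6 and 30.03 RPM) were 11.8-fold lower and the long ones 6.25-fold. Within the 5′ arm the values were 4.52-fold and 3.92-fold.

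With the Hsp90aa1 shRNA the Gas5 fragments were again lower, as was nearly the whole list. The locus summed to 2090 and 1458 RPM in the negative-control libraries and to 221 and 235 RPM after the Hsp90aa1 shRNA, a mean of 1774 ± 447 against 228 ± 9.85 RPM (SD, n = 2 each), 7.78-fold lower. All 113 names that could be tested were lower by limma at an adjusted p under 0.05, 0 were higher (also 0 at an unadjusted p under 0.05), and 3 low names were not tested. Over all names 99.5% of the tested names were called lower, so the count of members stands at the background. The groups did not overlap for 116 of 116 names, against 99.8% of all names. For a single sum of 2 libraries against 2, an exact permutation test cannot give a p below 0.33, so no p is given for sums and shares here.

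Scaled within the list, no member passed in either direction. TMM factors moved all log2 changes up by 2.80, the members' median from −3.01 to −0.20, with 70 of 113 members below 0 against 51.2% of all names. Of the members, 0 were called in either direction by edgeR with TMM factors, against 0.125% of all names called lower, and 0 with DESeq2 size factors. At an unadjusted p under 0.05 edgeR gave 10 lower and 1 higher, and DESeq2 4 lower and 1 higher. The share over all names at that unadjusted threshold is not given, so nothing is read from these counts. The share of the locus in the summed RPM of all listed names was 0.751% and 0.449% in the negative-control libraries, against 0.443% and 0.738% in the Hsp90aa1 shRNA libraries, ranges that overlap. On that scale the ratio was above 0 for Gm26224 (log2 0.17), Gm23212 (0.21), Mir5117 (0.091) and Gm25789 (0.016), so their direction rests on scaling by library totals. Of the names on snoRNA genes the locus made up 7.02% and 5.45% in the negative-control libraries and 8.33% and 9.65% after the Hsp90aa1 shRNA, without overlap.

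Snord80 had the widest gap in this contrast too, from 128 and 96.0 RPM to 8.23 and 7.02 RPM, 14.7-fold lower. Gm22489 followed with 145 and 71.4 against 6.51 and 11.3 RPM, 12.2-fold lower, and Snord47 with 139 and 92.6 against 9.06 and 11.9 RPM, 11.0-fold lower. Gm23212 had 250 and 150 against 29 and 31.6 RPM and Gm26224 595 and 385 against 64.8 and 77.5 RPM, the narrowest at 6.61-fold and 6.88-fold. Snord80 held 6.14% and 6.59% of the locus in the negative-control libraries and 3.73% and 2.99% after the Hsp90aa1 shRNA, without overlap. Its 3′ arm had 108 and 82.9 against 5.16 and 3.88 RPM, 21.1-fold lower, and its 5′ arm 20.3 and 13.2 against 3.07 and 3.14 RPM, 5.39-fold lower. The 3′ to 5′ ratio of Snord80 was 5.33 and 6.3 in the negative-control libraries and 1.68 and 1.24 after the Hsp90aa1 shRNA. With TMM factors the 10 names of its 3′ arm were all below 0 (median −1.71) and the 4 of its 5′ arm all above 0 (median 0.36), none past the threshold. On Snord47 the 3′ arm (19.2 and 11.5 against 0.973 and 0.646 RPM) was 18.9-fold lower and the 5′ arm (120 and 81.1 against 8.08 and 11.3 RPM) 10.4-fold. The names of that 3′ arm rest on 1 to 7 reads in an Hsp90aa1 shRNA library, and 1 of them is listed at 4 loci.

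Single names of the shRNA table moved as follows. The leading names piR-mmu-53871 on Gm25789 and piR-mmu-10829934 on Gm26224 had 285 and 254 against 37.1 and 32.7 RPM and 337 and 199 against 29.9 and 38.7 RPM. Their log2 changes on the log2(RPM + 1) scale were −2.91 ± 0.60 (SE, limma adjusted p = 0.00155) and −2.89 ± 0.63 (limma adjusted p = 0.0019). On Snord80 piR-mmu-5926135 had 17.5 and 17 against 1.72 and 0.739 RPM, with a log2 change of −3.07 ± 0.43 (limma adjusted p = 0.000584). On the log2(RPM + 1) scale, which mutes low names, the deepest were piR-mmu-10644453, a 33-nt name at the C box of Snord47 with 31.1 and 13.6 against 0.299 and 1.57 RPM, and piR-mmu-4547906 of the Snord80 ladder with 13.1 and 11.7 against 0.225 and 0.185 RPM. The second of these had 3 and 2 reads in the Hsp90aa1 shRNA libraries, so no fold is given. Some leading names, piR-mmu-10829934, piR-mmu-10646625 on Gm23212 (157 and 60.8 against 12 and 18.1 RPM) and piR-mmu-55491372 on Snord78 (88.9 and 37.7 against 6.96 and 11.0 RPM), did not pass without negative-control library A, with limma adjusted p of 0.063, 0.104 and 0.0735. The same names were above 0 with DESeq2 size factors, at 0.037, 0.18 and 0.22, not past the threshold. piR-mmu-55451670 on Gm22489 had 64.6 and 43.0 against 3.44 and 4.80 RPM and piR-mmu-12221770 on Mir5117 9.58 and 6.65 against 0.973 and 0.923 RPM, both lower at limma adjusted p of 0.000629 and 0.0008. The 3 names not tested, piR-mmu-8543066, piR-mmu-49002883 and piR-mmu-29243985, had at most 1.12 RPM in any library.

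The arms differed less in this contrast. The 3′ arm names summed to 1614 and 1124 RPM against 165 and 176 RPM, 8.04-fold lower, and the 5′ arm names to 476 and 335 RPM against 56.3 and 59.3 RPM, 7.02-fold lower. The 3′ to 5′ ratio of the locus was 3.39 and 3.36 in the negative-control libraries and 2.93 and 2.96 after the Hsp90aa1 shRNA, without overlap. Outside Gas5 the Snord names went the other way, with ratios of 0.982 and 0.676 against 1.12 and 1.31. Short names of the locus (131 and 138 against 15.7 and 7.94 RPM) were 11.4-fold lower and long ones (1959 and 1320 against 205 and 227 RPM) 7.58-fold. That difference of log2 ratios, 0.59, was 0.10 without Hsp90aa1 library B, 1.23 without Hsp90aa1 library A, 0.29 without negative-control library B and 0.94 without negative-control library A.

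Other snoRNAs are the frame for these values. Under MC-LR the names on snoRNA genes outside Gas5 were 5.31-fold lower in sum, those on Snord genes 5.19-fold and those on Snora genes 8.08-fold, beside 5.84-fold for Gas5 and 2.70-fold for names on no snoRNA gene. In counts by limma, 935 of 989 tested Snord names and 88 of 95 Snora names were lower, and 0 were higher. The list for Snhg1, another snoRNA host gene, held names of 1 snoRNA only, of which 15 of 17 were lower and 0 higher. Over all names 73.1% of the tested names were called lower. With the Hsp90aa1 shRNA the Snord names were 11.3-fold lower and the Snora names 13.7-fold, beside 7.78-fold for Gas5 and 7.14-fold for names on no snoRNA gene. There, 807 of 807, 73 of 73 and 15 of 15 tested names of the same lists were lower and 0 were higher, against 99.5% lower over all tested names. Their median log2 ratios were −3.29, −3.25 and −2.98, against −3.04 for Gas5 and −2.86 for all listed names.

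Among 165 snoRNA genes with names in both tables, Snord1b was closest to the Gas5 locus in pattern over the 8 libraries, with a distance of 0.26 between centred log2(sum + 1) values. Its sums were 154 and 205 RPM in the control libraries, 31.5 and 35.2 RPM with MC-LR, 52.9 and 41 RPM in the negative-control libraries and 5.24 and 5.91 RPM after the Hsp90aa1 shRNA. Snord52 (distance 0.58) and Gm22680 (0.59) came next, and the median over the genes was 1.51. The tables were scaled apart, so the distance joins 2 separate patterns.

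Both contrasts were measured on 116 shared names. Across these names Pearson's r of the log2 ratios was 0.43 and Spearman's rho 0.43, given as a description of names that overlap each other. The shRNA ratio was the deeper one for 85 names, with a median difference of −0.36. The share over all names is not given, so nothing is read from this count. The median log2 ratio of all listed names was −1.66 under MC-LR and −2.86 with the shRNA. For all Gas5 names of each table it was −2.66 and −3.04. The 27 names listed in the MC-LR table alone were low, with a median control mean of 2.21 RPM and a highest of 15.3 RPM. One name, the 18-nt piR-mmu-49002883 at the end of Snord47, is listed at 4 loci and runs 1 nt past the annotated snoRNA, so its reads cannot be given to Gas5 alone.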

How the data were processed

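The authors deposited 2 tables of RPM values per listed locus, strand and piRNA name. The genome was mm10 and the tools were HISAT2 2.1.0, Bowtie2 2.2.3 and HTSeq 0.6.0, per the submitters' processing notes. Which step each tool served, which total RPM refers to and how names were chosen for the tables is not given in the sources used here. Deposited RPM values were whole multiples of 1 read (100% within 0.01), which gave back reads and library totals. Total RNA was taken up with Trizol and sequenced from a NEBNext Ultra RNA library, per the labels' protocols, which name no size selection. Starts were read as 0-based: 118 plus-strand loci of the MC-LR table then begin at a mature 5p microRNA start, against 10 otherwise.

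Each name was used once. limma 3.58.1 (trend, robust) in R 4.3.3 took log2(RPM + 1) of each table alone, keeping names whose mean reached 1 RPM in either group, at a Benjamini-Hochberg adjusted p of 0.05. edgeR 4.0.16 and DESeq2 1.42.0 were run on the recovered reads as alternatives. Sums, arms, motifs and figures were made in Python 3.11.15 with pandas 2.3.3, numpy 2.4.6 and matplotlib 3.10.9. The fit was tested on simulated data in which most names stayed level, unlike these tables, so that test does not bear on the scaling. A floor of 3 reads is 0.205 to 0.605 RPM, depending on the library. Groups came from sample titles. snoRNA genes and sequences are those of GENCODE M21 (GRCm38, the mm10 assembly).

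The members and lists were chosen with earlier results of these data known. Names printed with values were, in each table, the most abundant of each snoRNA, the 3 deepest and 3 shallowest limma changes, names at several loci and the 3 snoRNA genes nearest in pattern. The other names of the Snord80 ladder, of the 3′ arm of Gm23212, the not tested names, the name between the boxes of Gm25789 and the names at the edges of the window were added after their values were seen. Library letters were not taken as pairs, since A libraries deviated together with a correlation of 0.07 in the MC-LR table and −0.61 in the shRNA table.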

Additional observations from a re-analysis of the deposited data

How the results depend on the processing

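The count of lower Gas5 names was sensitive to scaling. Under MC-LR, 136 became 17 with edgeR and TMM factors and 17 with DESeq2 size factors, and in the shRNA contrast 113 became 0 and 0. The filter of at least 5 RPM left 60 names to test in the shRNA contrast, and 60 were lower. A pseudocount of 0.1 RPM, no filter and edgeR on library totals kept both counts within 1.5 times, and 0 names were higher in any of these fits. With a replicate block by library letter the counts were 134 and 112, and the crossed pairing, added after the data were seen, gave 138 and 113. Leaving out 1 library gave 113 to 139 and 98 to 111 lower names, where the lone library of a group is assumed to vary like the others.

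As a share of all listed RPM, the log2 ratio of the locus went from −2.55 to −0.96 under MC-LR and from −2.96 to −0.022 with the shRNA. In the shRNA contrast it turned to 0.17 for Gm26224, 0.21 for Gm23212, 0.091 for Mir5117 and 0.016 for Gm25789. Without 1 library the ratio of the locus ran from −2.80 to −2.24 and from −3.20 to −2.68. The 3′ minus 5′ difference ran from −0.75 to −0.56 under MC-LR and from −0.25 to −0.21 with the shRNA. There it was −0.23 with ends within 5 nt, −0.40 within 2 nt, −0.20 within 8 nt and −0.20 by arms, a division added after the data were seen. The long minus short difference ran from 0.08 to 1.25 and from 0.10 to 1.23. With TMM factors piR-mmu-15655685 turned to 0.32 under MC-LR, and in the shRNA contrast piR-mmu-10646625 turned to 0.088 and piR-mmu-55491372 to 0.13. DESeq2 gave 0.18 and 0.22 for the latter 2 and 0.037 for piR-mmu-10829934, all not past the threshold. The cause of these changes was not tested. Over all names, the counts of lower names went from 9703 to 401 (TMM) and 394 (DESeq2) under MC-LR, where leaving out MC-LR A or B gave 5259 and 5373, and from 16773 to 21, 133 and, at 5 RPM or more, 8142 with the shRNA. Depth limits the lowest names, which rest on 1 to 3 reads in a library.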
